A study of Mus musculus with 4 samples.

Results

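The 10 genes described here are markers of pericytes and smooth muscle cells, the mural cells that wrap small and large blood vessels. They were taken by gene symbol from a deposited table of 24328 gene rows, in which all 10 had a row: Myh11, Acta2, Tagln and Cnn1 of the contractile apparatus, and Rgs5, Higd1b, Steap4, Kcnj8, Abcc9 and Pdgfrb as pericyte genes. The samples were 4 libraries of polyadenylated RNA from satellite cells, the stem cells of skeletal muscle, sorted after the mice had been perfused with the fixative paraformaldehyde. The YFP group held 2 libraries from mice of genotype Pax7CreERT2/+; ROSA26YFP/+ at 7 months of age. The DEK group held 2 libraries from mice of genotype Pax7CreERT2/+; H11DEK-EGFP/+ at 4.5 months of age. Both groups thus carried 1 copy of the Pax7CreERT2 driver, a Cre recombinase made in cells that express Pax7 and activated by tamoxifen, and had the same fixation, digestion and sort. Age, reporter and transgene locus went with the group and cannot be told apart from the DEK-EGFP transgene. The labels do not say whether the replicates came from separate animals, so the spread behind each p-value may be technical.

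Mural cells share the basement membrane of the endothelium. Pericytes on capillaries depend on PDGF-B from endothelial cells, which acts through the receptor Pdgfrb, while smooth muscle cells of arterioles and venules contract through smooth muscle actin and myosin under control of the transcription factor SRF and its coactivator myocardin. In muscle, pericytes lie close to satellite cells along the fibre surface. Several of the genes are not exclusive to mural cells: Acta2 and Tagln are also made by myofibroblasts and immature muscle cells, and Pdgfrb is also found on fibroblasts.

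Levels are FPKM (fragments per kilobase of transcript, scaled to library size), a unit inferred from the values. Dek, the overexpressed gene, stood at 512 and 504 FPKM in the YFP libraries against 3196 and 1639 FPKM in the DEK ones. Satellite cell identity was present in all libraries. Pax7, the defining transcription factor of these cells and named here for that reason, stood at 106 and 93.9 FPKM in YFP against 119 and 184 FPKM in DEK. Rn45s, the precursor of ribosomal RNA, made up 11.8% and 15.7% of the summed FPKM in YFP and 5.15% and 5.55% in DEK. Between 11669 and 12000 genes reached 1 FPKM per library. The number of reads per library is unknown.

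Myh11 and Higd1b, which were listed at or near 0 in YFP, rose in DEK together with Rgs5 and Steap4, while Acta2, the most abundant of the 10 genes in YFP, had lower values in DEK that did not pass the test. By limma on log2(FPKM + 1), with p-values adjusted over 12179 tested genes and an adjusted p under 0.05 taken as a call, 4 of the 10 rose in DEK (Rgs5, Myh11, Steap4 and Higd1b), 0 fell and 6 were not called. Of all tested genes 7.78% were called, 4.57% higher and 3.21% lower. At an unadjusted p under 0.05, 6 of the 10 were higher and 2 lower, against 29.1% of all tested genes in either direction, 16.9% higher and 12.2% lower. Both DEK values lay above both YFP values for 7 of the 10 genes and below them for 2, Acta2 and Kcnj8. Among all tested genes 60.9% had groups that did not overlap, 34.0% with DEK higher and 26.9% with DEK lower. The median log2 fold change was 0.81 over the 10 genes and 0.68 without Higd1b, which was listed at 0 in both YFP libraries, against 0.05 over all tested genes. Myh11, Cnn1 and Higd1b were under 1 FPKM in both YFP libraries and were tested only because both DEK values reached 1 FPKM. Of the 7 genes that reached 1 FPKM in at least 1 YFP library, 2 rose and 0 fell, with a median of 0.45. At an unadjusted limma p under 0.05, 3 of these 7 were higher and 2 lower. Both DEK values lay above both YFP values for 4 of the 7 and below them for 2. After quantile normalization, TMM scaling, or removal of Rn45s with rescaling, 4 of the 10 rose and 1 fell, Acta2. In bulk RNA, more mural cells in a sample cannot be told apart from more RNA of these genes per cell.

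**Figure D1:**
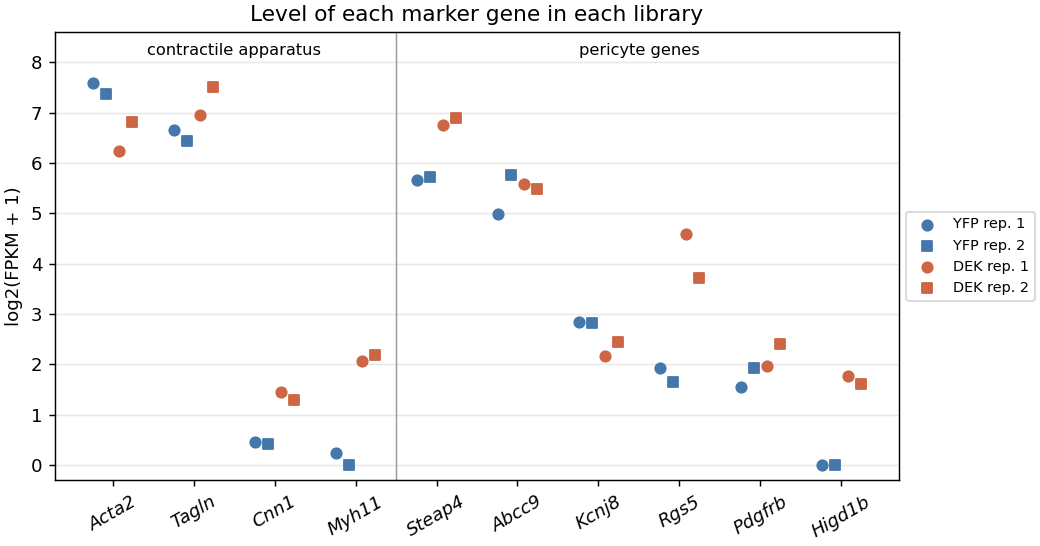
Level of each of the 10 marker genes in each library, as log2(FPKM + 1) on the vertical axis, with circles for replicate 1, squares for replicate 2, blue for YFP and orange for DEK. Acta2, Tagln, Steap4 and Abcc9 stood high in all 4 libraries, whereas Cnn1, Myh11 and Higd1b were near the bottom in YFP and higher in both DEK libraries.

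The 10 genes spanned a wide range within a library, on the FPKM scale, which is per length of transcript. In YFP, Acta2, Tagln, Steap4 and Abcc9 each stood above 30 FPKM, while Myh11 and Higd1b did not exceed 0.175 FPKM. The group that goes by the name of mural markers was therefore not uniform in the sorted cells: 4 of its genes were abundant in libraries where the most restricted ones were at or near 0. The highest gene was Acta2 in both YFP libraries and Tagln in both DEK libraries. Steap4 ranked second in both DEK libraries, and in YFP it and Abcc9 exchanged places between replicates. The lowest places were held by Myh11 and Higd1b in YFP and by Higd1b and Cnn1 in DEK. The summed level of the 10 genes was 386 and 368 FPKM in YFP and 389 and 483 FPKM in the DEK libraries, so the sum, which Acta2 and Tagln dominate, nearly coincided between YFP replicate 1 and DEK replicate 1.

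The contractile genes did not share a direction: 1 of 4 rose, beside 4.57% of all tested genes called higher and 3.21% lower. That gene was Myh11, tested only through its DEK values. The values of Acta2 and Tagln lay on opposite sides of YFP without passing. Acta2, smooth muscle alpha actin, stood at 193 and 166 FPKM in the YFP libraries against 74.2 and 111 FPKM in the DEK libraries. Both DEK values were below both YFP values, and the log2 fold change was -0.97 (SE 0.22, 95% interval -1.50 to -0.43, limma adjusted p = 0.0529), which did not pass. Acta2 passed with TMM scaling (adjusted p = 0.0334), quantile normalization (0.0289), Rn45s removed (0.0361) and a filter at 5 FPKM (0.0478), and without DEK replicate 2 when the 1 FPKM filter was set on the other 3 libraries (0.00948), always downward. For Tagln, the actin-binding protein transgelin or SM22, the DEK values were the higher ones, with 101 and 85.9 FPKM in YFP and 123 and 182 FPKM in the DEK libraries. The 2 groups did not overlap, but the log2 fold change of 0.68 (SE 0.21) did not pass (adjusted p = 0.105). Without DEK replicate 1, with the 1 FPKM filter set on the other 3 libraries, Tagln passed (adjusted p = 0.0410), and without DEK replicate 2 its log2 fold change was 0.40. In the GENCODE M21 annotation 40.9% of the 75-base windows of the Tagln transcript also occur in transcripts on the other strand, those of Gm48529 and Pcsk7, so the Tagln value is uncertain where reads were counted without strand. Pcsk7, a proprotein convertase, stood between 20.7 and 28.6 FPKM in the 4 libraries (log2 fold change 0.23, adjusted p = 0.387). Of the Acta2, Myh11 and Cnn1 transcripts, 0 such windows were shared with other genes.

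Myh11, the smooth muscle myosin heavy chain and the most restricted of the contractile markers, stood at 0.175 and 0 FPKM in the YFP libraries against 3.21 and 3.53 FPKM in the DEK libraries. Myh11 and Cnn1 were tested only because both DEK values reached 1 FPKM. They could hardly be tested without being higher, so their p-values give no support to a rise. Myh11 rose by 2.01 on the log2 scale of FPKM + 1 (SE 0.22, limma adjusted p = 0.00911), with both DEK libraries nearly equal. That call held without YFP replicate 1 (adjusted p = 0.0479) and was lost without YFP replicate 2 (0.0720) and without DEK replicate 1 (0.0914) or 2 (0.0660), with a log2 fold change between 1.89 and 2.13 each time. Cnn1, calponin, which binds actin and restrains myosin, stood at 0.376 and 0.327 FPKM in the YFP libraries against 1.74 and 1.45 FPKM in the DEK libraries. The groups were well apart, yet the log2 fold change of 0.94 (SE 0.21) did not pass (adjusted p = 0.0534); it passed in limma without the variance trend (0.0341). Myh11 and Cnn1 remained low in DEK, where Tagln was 71.0 and 125 times as abundant per length as Cnn1.

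The upstream sequences of Acta2 and Cnn1 are shown because the contractile genes are textbook targets of SRF, which binds the CArG box, and because these are the contractile genes of the 10 that a RefSeq promoter table (build GRCm38.p6, 250 bases before to 50 after the start) holds. That table holds 6 of the 10 genes. The 150 bases before the listed start are printed 5′ to 3′, and capitals mark a CArG box in which at most 1 of the 6 inner bases is G or C; it reads as the same motif on both strands. Acta2 lies at chr19:34255374-34255523 on the minus strand and Cnn1 at chr9:22099103-22099252 on the plus strand.
Acta2: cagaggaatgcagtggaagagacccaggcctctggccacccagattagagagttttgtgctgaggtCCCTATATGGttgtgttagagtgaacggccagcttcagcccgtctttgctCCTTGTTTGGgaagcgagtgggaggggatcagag
Cnn1: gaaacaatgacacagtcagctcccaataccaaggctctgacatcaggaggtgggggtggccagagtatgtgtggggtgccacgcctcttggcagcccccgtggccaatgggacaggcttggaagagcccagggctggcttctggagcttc
The Acta2 window held 2 such boxes, CCCTATATGG beginning 84 bases and CCTTGTTTGG beginning 34 bases before the start, and the Cnn1 window held 0. With at most 1 inner G or C the box occurred in 9.98% of 32851 promoter windows of 300 bases, and with none in 1.63%; the windows of Rgs5, Steap4, Kcnj8 and Abcc9 held neither form. A match is a description of the letters, and binding was not measured.

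Of the 6 pericyte genes 3 rose and 0 fell by limma, beside 4.57% of all tested genes higher and 3.21% lower. Of the 3, Higd1b was tested only because both DEK values reached 1 FPKM, so it gives no support to the count. Rgs5, a regulator of G protein signalling that is a standard pericyte marker, stood at 2.81 and 2.14 FPKM in the YFP libraries against 22.99 and 12.1 FPKM in the DEK libraries. Both DEK libraries were high, replicate 1 more so, and the ratio of mean FPKM was 7.08. Rgs5 rose by 2.36 on the log2 scale of FPKM + 1 (SE 0.32, 95% interval 1.58 to 3.13, limma adjusted p = 0.0161). Steap4, a metalloreductase that reduces iron and copper at membranes, stood at 49.9 and 51.8 FPKM in the YFP libraries against 108 and 118 FPKM in the DEK libraries. Both DEK values were well above both YFP values, and it rose by 1.14 (SE 0.13, adjusted p = 0.0115), a ratio of mean FPKM of 2.22. Higd1b, of the hypoxia-inducible domain family and a marker of capillary pericytes, had no value above 0 in YFP, against 2.40 and 2.06 FPKM in the DEK libraries (adjusted p = 0.0141); no fold is given for it. Pdgfrb, the PDGF receptor that defines pericytes, stood at 1.93 and 2.80 FPKM in the YFP libraries against 2.93 and 4.29 FPKM in the DEK libraries. The lowest DEK value was close to the highest YFP value, and the log2 fold change of 0.45 did not pass (95% interval -0.17 to 1.07, adjusted p = 0.289).

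With the tested genes unchanged, the calls of Rgs5, Steap4 and Higd1b were each lost when any 1 library was left out. Without YFP replicate 1 their limma adjusted p-values were 0.0873, 0.0890 and 0.0706, and without YFP replicate 2 they were 0.117, 0.105 and 0.0845. Without DEK replicate 1 they were 0.117, 0.0909 and 0.0936, and without DEK replicate 2 they were 0.0514, 0.0669 and 0.0620. The log2 fold changes kept their direction, between 1.92 and 2.79 for Rgs5 and between 1.07 and 1.20 for Steap4. In these same settings limma called between 0 and 184 of all tested genes, and 948 with none left out. When the 1 FPKM filter was set on the 3 libraries that remained, Rgs5 and Steap4 passed without DEK replicate 1 (0.0298 and 0.0184) and without DEK replicate 2 (0.00383 and 0.0153), while Myh11, Cnn1 and Higd1b missed that filter. The smallest p that an exact permutation of 2 against 2 libraries can give is 0.333.

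**Figure D2:**
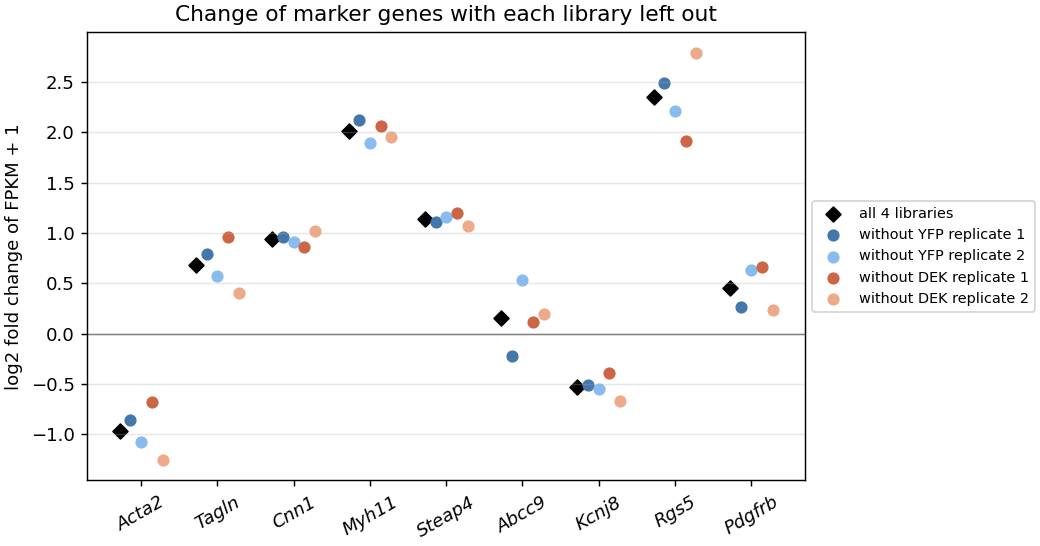
Log2 fold change of FPKM + 1, DEK against YFP, for 9 of the marker genes with all 4 libraries (diamonds) and with each library left out in turn (circles); Higd1b, listed at 0 in YFP, is not drawn. Rgs5, Myh11 and Steap4 stayed above 0 and Acta2 and Kcnj8 below 0 each time, whereas Abcc9 lay on both sides of 0. Myh11 and Cnn1 were tested only through their DEK values, so their place above 0 gives no support.

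The upstream 150 bases of the called genes that the table holds, Rgs5 at chr1:169655351-169655500 and Steap4 at chr5:7960322-7960471, both on the plus strand of GRCm38.p6, are shown to set genes that rose beside the contractile pair; no capitals appear because no CArG box was found in them.
Rgs5: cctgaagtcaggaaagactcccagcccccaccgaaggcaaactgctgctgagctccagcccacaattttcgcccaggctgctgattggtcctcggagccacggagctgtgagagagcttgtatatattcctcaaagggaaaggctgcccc
Steap4: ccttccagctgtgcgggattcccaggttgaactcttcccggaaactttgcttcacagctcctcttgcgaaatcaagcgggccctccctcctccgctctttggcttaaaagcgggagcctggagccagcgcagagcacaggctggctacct
Their G and C content was 57.3% and 59.3%.

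Kcnj8 and Abcc9 encode the subunits of the vascular ATP-sensitive potassium channel, the pore Kir6.1 and the sulfonylurea receptor SUR2, and are neighbours on chromosome 6. Kcnj8 stood at 6.20 and 6.03 FPKM in the YFP libraries against 3.48 and 4.44 FPKM in the DEK libraries. Both DEK values were lower, with a log2 fold change of -0.53 (95% interval -1.01 to -0.04) that did not pass (limma adjusted p = 0.148). Abcc9 stood at 30.9 and 53.0 FPKM in the YFP libraries against 46.7 and 44.0 FPKM in the DEK libraries. Both DEK values of Abcc9 lay between the YFP replicates, and its log2 fold change of 0.16 (adjusted p = 0.722) turned to -0.22 without YFP replicate 1. Neither subunit was called. Abcc9 was between 4.98 and 13.4 times as abundant per length as Kcnj8 in the 4 libraries; 1.35% of the 75-base windows of its transcript also occur in other genes. The related channel genes Kcnj11 and Abcc8 were scarce. Kcnj11 stood at 0.191 FPKM in DEK replicate 1 and 0 elsewhere, and Abcc8 at 0 in YFP and at 0.226 and 0.551 FPKM in the DEK libraries.

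**Figure D3:**
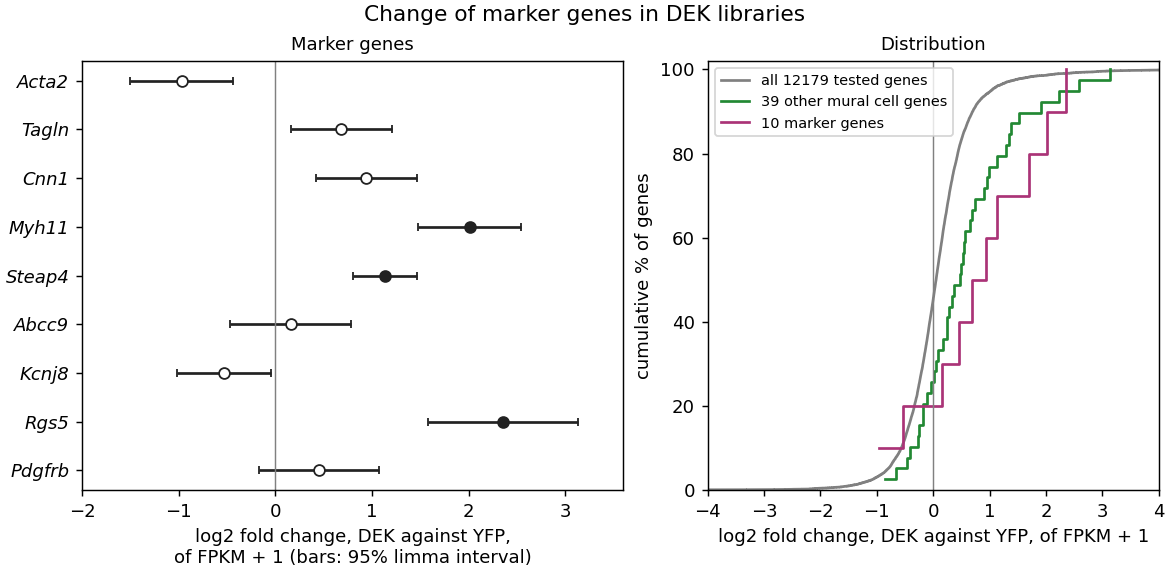
Left, log2 fold change of FPKM + 1 for 9 of the marker genes with 95% limma intervals, filled where the adjusted p was under 0.05; Higd1b, listed at 0 in YFP, is not drawn. Right, cumulative percent of genes against the log2 fold change for all 12179 tested genes, 39 other mural cell genes and the 10 marker genes (Higd1b included, at a value that depends on the added 1). The medians were 0.05, 0.47 and 0.81. Myh11, Cnn1, Higd1b and 5 of the other mural cell genes were tested only through their DEK values, which sets their curves apart in part. Over the 7 markers that reached 1 FPKM in at least 1 YFP library the median was 0.45.

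Other mural cell genes, from a list of 48 symbols written from general knowledge, were examined for the same comparison. Of the 46 with a row, 39 were tested, 9 rose and 0 fell by limma, beside 4.57% of all tested genes higher and 3.21% lower, and the median log2 fold change was 0.47. Of the 39 genes 5 were tested only because both DEK values reached 1 FPKM, among them 3 of the 9 that rose, Ndufa4l2 and Olfr558 included; these 3 give no support to the count. Ndufa4l2, a mitochondrial protein enriched in pericytes, stood at 0.0989 and 0 FPKM in the YFP libraries against 8.02 and 8.30 FPKM in the DEK libraries (adjusted p = 0.00336). Olfr558, an olfactory receptor made by vascular smooth muscle, stood at 0 and 0.0336 FPKM in the YFP libraries against 6.01 and 4.36 FPKM in the DEK libraries (adjusted p = 0.00514). Ppp1r14a, an inhibitor of myosin phosphatase, rose from 3.44 and 2.27 FPKM to 15.7 and 18.3 FPKM (adjusted p = 0.00718). Vtn, the matrix protein vitronectin, rose from 28.0 and 29.3 FPKM to 64.2 and 79.7 FPKM (adjusted p = 0.0128). The pericyte surface markers Cspg4 and Mcam, chosen after their values were seen, had log2 fold changes of -0.24 and -0.19 (adjusted p = 0.534 and 0.604). Notch3, the receptor of mural cells that satellite cells also carry, likewise chosen afterwards, stood between 337 and 542 FPKM in the 4 libraries (log2 fold change 0.02, adjusted p = 0.961). Tbx18, Pdlim7 and Cald1, also chosen afterwards, were the 3 genes of the list lower at an unadjusted limma p under 0.05. Their log2 fold changes were -0.86, -0.66 and -0.42 (limma adjusted p = 0.0809, 0.0583 and 0.135). Tbx18 was tested only because both YFP values reached 1 FPKM. With a YFP library left out (replicate 1, then 2) limma called 4 and 1 of the 39 genes higher, and with a DEK library left out 0 and 2, with 0 lower in each case. With all 4 libraries, 20 of the 39 were higher and 3 lower at an unadjusted limma p under 0.05. Of all tested genes 16.9% were higher and 12.2% lower at that level. The 39 include the 5 genes tested only through their DEK values. Those 5 give no support to the count of 20 or to the medians of the list. The median log2 fold change of the list was 0.51 and 0.34 without YFP replicates 1 and 2, and 0.56 and 0.35 without DEK replicates 1 and 2. With the scaling alternatives 1 gene of the list was called lower and 7 to 9 higher. Des and Heyl of this list, 2 genes, are also on the satellite cell list.

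Regulators of the smooth muscle programme were low or did not pass. Myocd, myocardin, chosen after its values were seen, had no value above 0 in YFP and 0.208 and 0.319 FPKM in the DEK libraries, under the level needed for testing. Srf, also chosen afterwards, stood at 0.842 and 0.858 FPKM in the YFP libraries against 1.36 and 1.13 FPKM in the DEK libraries. Of the 6 tested genes of the SRF and myocardin family list 0 were called by limma, with 1 higher and 0 lower at an unadjusted p under 0.05. The members with the smallest p were the ternary complex factors Elk3 (log2 fold change 0.76, adjusted p = 0.140) and Elk4 (0.51, adjusted p = 0.214) and the myocardin-related coactivator Mkl1 (-0.76, adjusted p = 0.220). Of PDGF ligands and receptors, 3 of 6 were tested, and limma called 0, with 0 at an unadjusted p under 0.05. Pdgfb, the endothelial ligand of Pdgfrb, chosen afterwards, stood between 0.352 and 0.538 FPKM in the 4 libraries. Pdgfa, a ligand of the alpha receptor, showed a log2 fold change of 0.30 (adjusted p = 0.537), and Pdgfra, that receptor and a marker of fibro-adipogenic progenitors, had 0.81 (adjusted p = 0.277).

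Among 34 listed relatives of the 10 genes in the same protein families, 23 were tested, and 3 rose and 1 fell by limma, with a median log2 fold change of 0.04. With 4.57% of all tested genes higher and 3.21% lower, and with 1, 1, 0 and 2 relatives called higher when YFP replicates 1 and 2 and DEK replicates 1 and 2 were left out in turn, nothing is read from these counts. Actc1, the cardiac alpha actin of immature muscle, fell from 123 and 93.1 FPKM to 1.16 and 6.01 FPKM (log2 fold change -4.80, adjusted p = 0.00931), while the cytoplasmic gamma actin Actg1 rose from 35.5 and 33.5 FPKM to 77.3 and 68.7 FPKM (adjusted p = 0.0159). Actg2, the gamma actin of visceral smooth muscle, was at 0 in YFP and stayed under 1 FPKM in DEK. Rgs2, a relative of Rgs5 that responds quickly to stimuli, rose from 46.6 and 38.7 FPKM to 188 and 104 FPKM (adjusted p = 0.0280). The third relative that rose was Csf1r, a receptor kinase related to Pdgfrb and a macrophage marker, at 0.0977 and 0 FPKM in the YFP libraries against 5.997 and 5.38 FPKM in the DEK libraries (adjusted p = 0.00405), tested only through its DEK values. The non-muscle myosin Myh9 showed a log2 fold change of -0.45 (adjusted p = 0.161), and the calponin Cnn3, the most abundant of its family here, had 0.66 (adjusted p = 0.0532). Steap3 had -0.40 (adjusted p = 0.125) and Higd1a 0.24 (adjusted p = 0.342).

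Markers of other cell types moved in the same libraries. Sums below are over all listed genes with a row, tested or not. Beside the 4.57% of all tested genes called higher and 3.21% lower, the counts below are no measure of a list where members reached 1 FPKM in the DEK libraries alone, since such members could hardly be tested without being higher. Of 19 tested endothelial markers 15 rose and 0 fell by limma, and 13 of the 15 had reached 1 FPKM only in DEK. The summed level of the 21 listed genes was 79.0 to 82.8 FPKM in YFP and 296 to 362 FPKM in the DEK libraries. Tek, which was not called, made up most of the YFP sums, at 55.9 and 56.7 FPKM, and stood at 78.8 and 66.5 FPKM in DEK. Erg, Flt1, Kdr, Ptprb and Robo4 were at 0 in both YFP libraries. Of 9 tested macrophage and monocyte markers 5 rose, each of which had reached 1 FPKM only in DEK. Their list summed to 3.78 to 20.6 FPKM in YFP and 110 to 129 FPKM in the DEK libraries. Lyz2, which was not called, made up most of the DEK sums, at 73.4 and 100 FPKM. Adgre1, C1qa, C1qb, C1qc and Lyz1 were at 0 in both YFP libraries. Of 5 tested erythroid markers, 3 of which had reached 1 FPKM only in DEK, 2 rose, both among those 3, with sums of 0.527 to 8.04 FPKM in YFP and 39.4 to 357 FPKM in the DEK libraries. Of 13 tested fibro-adipogenic progenitor markers, 3 of which had reached 1 FPKM only in DEK, 6 rose and 2 fell, and their sums overlapped between the groups, at 1366 to 1706 FPKM in YFP and 1505 to 1717 FPKM in the DEK libraries. Of 7 tested Schwann cell markers 2 rose, and Cdh19 was at 0 in both YFP libraries. The Schwann cell sums were 257 to 299.9 FPKM in YFP and 330.1 to 369 FPKM in the DEK libraries. Most of each sum was Pmp22, which was not called, at 277 and 241 FPKM in YFP and 290 and 336 FPKM in DEK. Of 9 myofibre markers 0 rose and 1 fell, with sums of 122 to 135 FPKM in YFP and 85.6 to 167 FPKM in the DEK libraries. Of 12 satellite cell markers 1 rose (Chrdl2, a secreted BMP antagonist, adjusted p = 0.0336) and 1 fell (Msc, the transcription factor musculin, adjusted p = 0.0438), both calls being lost with any 1 library left out on the same tested genes, and their sums overlapped between the groups, at 2301 to 2410 FPKM in YFP and 2335 to 3068 FPKM in the DEK libraries. All 21 immediate early and heat shock genes had both DEK values above both YFP values, beside 34.0% of all tested genes. By limma 9 rose. That count was 19 without DEK replicate 2, 0 without DEK replicate 1, and 2 and 1 without YFP replicates 1 and 2. These genes summed to 813 to 912 FPKM in YFP and to 22492 and 4933 FPKM in the DEK ones. Rgs5, at 22.99 and 12.1 FPKM, was the one of the 4 called markers with the widest gap between the DEK replicates, in the same order as those sums. Without YFP replicates 1 and 2 and DEK replicates 1 and 2 in turn, limma called 12, 7, 0 and 10 endothelial and 2, 2, 0 and 2 macrophage and monocyte markers higher on the same tested genes. With the filter set again on the 3 libraries left, the loss of either DEK library left 6 endothelial markers tested and 2 higher. The part of these lists in the levels of the 10 genes was not tested.

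**Figure D4:**
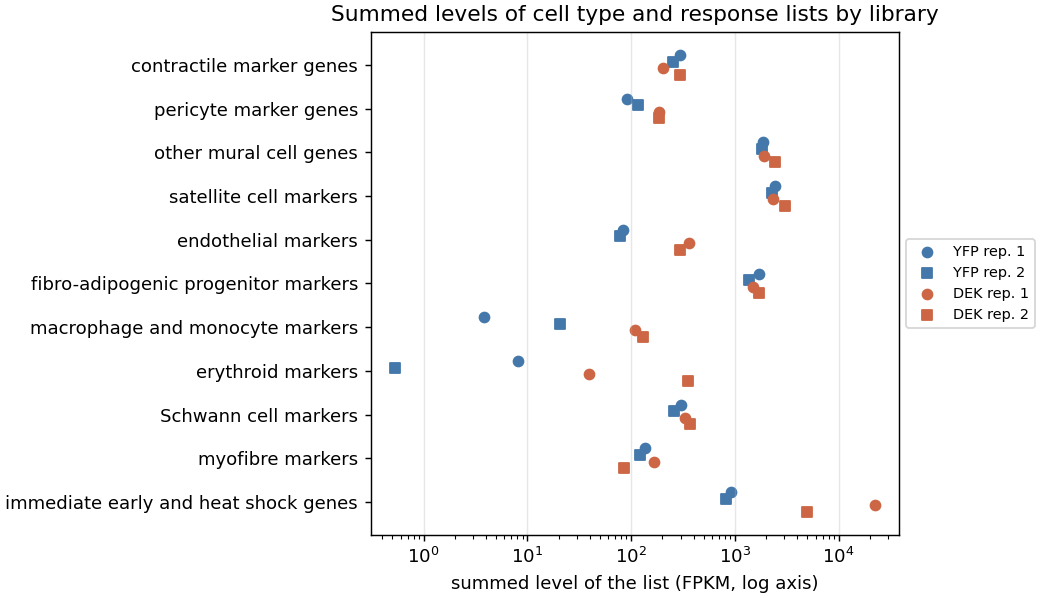
Summed FPKM of each list in each library on a log axis, with blue for YFP, orange for DEK, circles for replicate 1 and squares for replicate 2. The pericyte genes summed to 91.8 and 116 FPKM in YFP and 186 and 185 FPKM in the DEK libraries, while the contractile genes, dominated by Acta2 and Tagln, overlapped between groups. Steap4 was the largest term of the pericyte sum in both DEK libraries. It went from 49.9 and 51.8 FPKM (YFP) to 108 and 118 FPKM (DEK). Rgs5, Higd1b and Pdgfrb were also higher in DEK, but Abcc9 overlapped between groups and Kcnj8 was lower. The pericyte sum therefore does not show a shift shared by the whole group.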

How the data were processed

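RNA was measured in 4 libraries. Per the labels' protocols, sorted fixed cells gave RNA through a kit made for fixed tissue, a template-switching kit for small inputs turned it into cDNA, and sheared libraries were sequenced in pairs. STAR 2.5.3a, StringTie 1.3.3, R 3.4.1 and build mm9 are named in the submitters' processing notes; settings, annotation and strand handling are not given in the sources used here. The deposited table gives 1 value per gene symbol and library, taken as the authors' FPKM from StringTie; the unit is inferred, and the values could be TPM. The low values showed no steps from which read numbers could be recovered, so depth is unknown and no intervals for counting error are given. Column totals lay between 541183 and 545123 FPKM, and 0 value columns were left out.

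Values were analysed as log2(FPKM + 1) with limma 3.58.1 in R 4.3.3 (linear model, empirical Bayes variance trend, no covariates, two-sided). A gene was tested if 2 or more libraries reached 1 FPKM, with Benjamini-Hochberg adjustment over all of them. Fold changes on this scale understate genes with low values. The fit was tested on simulated data with known changes. Promoter windows came from RefSeq (GRCm38.p6), and shared windows from GENCODE M21 transcripts; neither was joined to mm9 coordinates. Named genes were the 10 markers, Dek, Rn45s, relatives in the same protein family and members of the other lists. Each other list gave up to 4 called members with the smallest p, or up to 3 tested members where 0 were called. Others are marked as chosen afterwards, with exceptions. The exceptions are Pax7, the genes Pcsk7 and Gm48529 that overlap Tagln, and Des and Heyl, which are on 2 lists. Further exceptions are genes named for being at 0 in YFP, and Tek, Lyz2 and Pmp22, named for their part in a sum. Genes and lists were chosen with earlier results of these data known. Alternatives were each library left out, the replicate number as a block, added values of 0.1 and 5, other low filters, unweighted TMM factors (trims of 30% and 5%), quantile normalization, removal of Rn45s, and limma without trend.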

Additional observations from a re-analysis of the deposited data

How the results depend on the processing

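With 1 library left out, limma called 0 to 184 genes in all against 948, and 0 to 1 of the 10 marker genes against 4; without DEK replicate 1 it called 0, with 2215 at an unadjusted p under 0.05. With the 1 FPKM filter set on the 3 libraries that remained, an alternative chosen after seeing the data, it called 168, 83, 302 and 780 genes (YFP replicates 1 and 2, then DEK replicates 1 and 2 left out) and 1, 0, 3 and 3 markers. The median log2 fold change of the markers then was 0.88, 0.77, 0.66 and 0.24, the last pair over 7 markers, since 3 miss that filter; with the filter unchanged it ran from 0.71 to 0.91. A lone library of a group is assumed to vary as the other group does. With no low filter 293 genes and 3 markers were called, Rgs5 being lost (adjusted p = 0.0727). The marker median was 0.92 with an added value of 0.1, 0.42 with 5, 0.42 with a filter at 5 FPKM, which keeps 6 markers, and 0.63 after quantile normalization. Removing Rn45s moved the median of all genes by -0.13, and higher genes then made up 42.3% of the calls, against 58.8% at first, 52.0% with TMM and 45.4% after quantile normalization. Abcc9 turned to -0.22 without YFP replicate 1, with either filter, and was 0.54 without YFP replicate 2; the cause was not tested. The other 9 markers kept their direction in every alternative that tested them. For Myh11, Cnn1 and Higd1b this gives no support, since they passed the 1 FPKM filter only through their DEK values. Replicate numbers are shared by the groups but are not shown to pair libraries: deviations of same-numbered libraries correlated at 0.06 across genes. With the replicate block 618 genes were called, and 4 of the 10 markers. Depth is unknown, so a level of 0 in YFP does not show absence.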

Other observations

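The ratio of Acta2 to Tagln, both on the FPKM scale and chosen after their values were seen, was nearly identical within each group. Acta2 was 1.92 and 1.93 times as abundant as Tagln in YFP replicates 1 and 2, and 0.602 and 0.612 times in DEK replicates 1 and 2. Each gene alone varied more between replicates than the ratio did: Acta2 stood at 74.2 and 111 FPKM and Tagln at 123 and 182 FPKM in DEK. The difference of the ratio between groups was not tested. Tagln shares part of its transcript with genes on the other strand, as given above, and the part of those reads in the ratio was not tested.

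Rgs5 and Pdgfrb, which both mark pericytes, stood in a ratio of 1.45 and 0.766 in YFP and of 7.86 and 2.81 in DEK. The ratio was thus higher in DEK, and it differed more between the DEK replicates than that of Acta2 to Tagln. This pair was also chosen after its values were seen, and the difference between groups was not tested. Rgs5 was called higher and Pdgfrb was not, so the ratio adds little to that call. Pdgfrb was low, between 1.93 and 4.29 FPKM in the 4 libraries.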
